A study of Apis mellifera with 15 samples.

Results

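Single-exon protein-coding genes were followed in the brains of forager honey bees (Apis mellifera) fed thiacloprid, a neonicotinoid insecticide. Members were the genes with a locus identifier as name whose transcripts in the deposited annotation all carried a coding accession and all consisted of a single exon, with a mean of at least 10 counts per library over the 15 libraries. The rule left out LOC406142 and LOC406144 by name. It gave 193 of the 12112 genes in the count table, from 261 single-exon coding locus genes at any count, so its upper limit of 300 genes was not reached. Of the genes not kept, 68 had a mean count under 10, and 18 of these had no count. Another 10 single-exon coding genes carry a symbol and are not members. Members were thus chosen by their mean count and the annotation, so levels below are a description, while the rule did not use the dose comparisons.

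A member just inside the threshold was LOC113219083, with a mean count of 10.1 and 5 to 16 counts per library. LOC102653956, just outside it, had a mean count of 9.0, with 0 to 36 counts per library.

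The bees were adult workers from an unpolluted site, kept in bottles in the laboratory for 72 h. The 3 groups of 5 libraries were bees given sucrose solution with solvent (control), with thiacloprid at 25 ng per bee and with thiacloprid at 250 ng per bee. Each library came from a pool of 5 dissected brains and was made from poly-A RNA with a stranded kit, per the labels. The colonies behind the pools are not named, so p-values measure the spread between pools. In pooled brain tissue, fewer cells of a type and less RNA per cell cannot be told apart.

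In most animal genes the coding sequence is split by introns, which are spliced out of the RNA before export and translation. A single-exon gene needs no splicing, and such genes can arise when a spliced messenger RNA is copied back into DNA and inserted elsewhere in the genome. Families that commonly lack introns in animals include replication-dependent histones, some heat shock proteins and some receptors, and messengers of replication-dependent histones mostly lack the poly-A tail by which these libraries were selected. Neonicotinoids act on nicotinic acetylcholine receptors, which carry much of the fast excitatory signalling in the insect brain. The files and the reference gene table give no product name for any member, so members are named by identifier and no role is given to them.

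Libraries held 9226059 to 11500655 counts in the control, 8123655 to 10067138 at 25 ng per bee and 6834898 to 29208991 at 250 ng per bee. The highest total belonged to replicate 1 at 250 ng per bee. It is the only library whose description starts with 20191023, against 20190809 for the other 14, and the labels do not explain this string. Genes of the hypopharyngeal gland, which a dissected bee brain can carry along (8 of 8 listed genes found), summed to 33910 to 259300 CPM (counts scaled to a common library total, by the TMM method) in the control, 92100 to 178000 CPM at 25 ng per bee and 37030 to 268900 CPM at 250 ng per bee. Replicate 1 at 250 ng per bee had the highest sum. All 6 listed neuronal genes were found, and their summed level was 1086 to 1386 CPM in the control, 960 to 1262 CPM at 25 ng per bee and 877 to 1051 CPM at 250 ng per bee. Listed genes of fat body and haemolymph (6 of 6 found, 1 at 0) summed to 3530 to 4887, 3140 to 3585 and 2967 to 4324 CPM over the 3 groups in the same order, and those of the retina (4 of 4 found) to 2958 to 6842, 3900 to 9255 and 2223 to 6583 CPM. Muscle genes (4 of 7 found) reached 75.3 to 597 CPM in the control, 104 to 392 CPM at 25 ng per bee and 157 to 796 CPM at 250 ng per bee, and the glial gene found (1 of 3) 245 to 361, 242 to 327 and 180 to 391 CPM. The part of these genes in the results below was not tested.

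Single-exon genes had short transcripts. Their median length was 1469 nt (quartiles 865 and 2611 nt, range 251 to 10350 nt), against 2158 nt for the 8578 multi-exon coding genes that passed the filter on low counts. Each member had 1 transcript, and 191 of the 193 carried a predicted-model accession and 2 a curated one. On the deposited per-length scale of fragments per kilobase of transcript, scaled to library depth (FPKM), the median level was 12.9 FPKM in members, against 17.1 FPKM in multi-exon coding genes. Levels of at least 100 FPKM were reached by 14 members (7.25%), against 7.51% of the multi-exon genes, and 15 members had a mean under 1 FPKM. The median biological coefficient of variation between replicates, as edgeR estimated it, was 0.215 in members and 0.169 in multi-exon coding genes. That estimate included replicate 1 at 250 ng per bee. Its value was under 0.5 times the lowest of the other libraries in 9.33% of members and 2.95% of multi-exon coding genes. The part of that library in the difference was not tested. These comparisons carry no test, since mean counts chose the members.

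**Figure D1:**
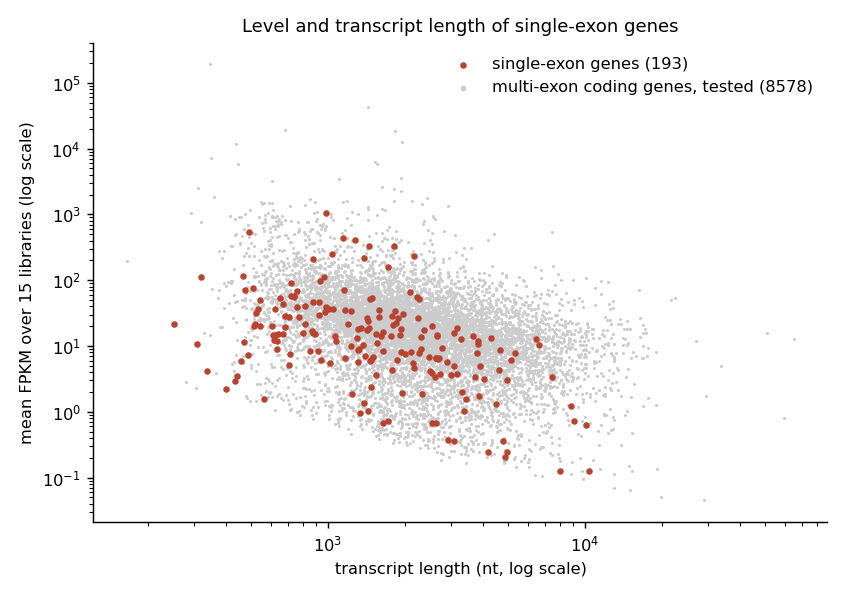
Mean FPKM over the 15 libraries (y axis, log scale) against transcript length in nt (x axis, log scale) for the 193 single-exon genes (red) and the 8578 tested multi-exon coding genes (grey). Single-exon genes lie mostly in the shorter part of the range, with 14 at or above 100 FPKM and 15 under 1 FPKM.

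The most abundant member was LOC113219380 (982 nt, minus strand), on a sequence not placed on a chromosome, at a mean of 1057 FPKM. It held 11.3% of all counts in members, and the 10 most abundant members by count held 51.3%. In TMM-scaled CPM it had 862, 747, 934, 1099 and 852 in the control, 1039, 1304, 1170.3, 1757 and 1231 at 25 ng per bee, and 1382, 1395, 858, 1017 and 999.6 at 250 ng per bee. Control libraries were low and those at 25 ng per bee high, with replicate 1 at 25 ng per bee below the highest control library. The next members by mean FPKM were LOC724531 on chromosome 4 (535 FPKM), LOC724449 (434) and LOC724405 (401) on chromosome 2, LOC100577623 on chromosome 11 (334), and LOC724211 (326) and LOC724274 (246) on chromosome 2. LOC408452 on chromosome 14 (232 FPKM), LOC100217360 on chromosome 2 (220 FPKM) and LOC724488 on chromosome 2 (207 FPKM) complete the first 10.

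LOC724531 (chromosome 4, 4819527 to 4820019, 493 nt) had 246 to 305 CPM in the control, 232 to 312 CPM at 25 ng per bee and 246 to 283 CPM in 4 libraries at 250 ng per bee, with 446 CPM in replicate 1. LOC100577623 (chromosome 11, 15817648 to 15819096) had 447 to 553 CPM in the control, 431 to 542 CPM at 25 ng per bee and 494 to 667 CPM in replicates 2 to 5 at 250 ng per bee, with 291 CPM in replicate 1. The same library thus held the highest value of the 15 for the first gene and the lowest for the second.

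All members together held 0.989 ± 0.191% of the counts of a library in the control, 1.002 ± 0.0622% at 25 ng per bee and 1.023 ± 0.204% at 250 ng per bee (SD, n = 5 each), with single libraries between 0.80% and 1.33%. The groups overlapped. When the 5 most abundant genes of each library, which hold 21.4 ± 7.73% of its counts (SD, n = 15), were taken out of the total, the shares were 1.254 ± 0.0821%, 1.295 ± 0.0352% and 1.269 ± 0.109% in the control, at 25 and at 250 ng per bee.

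Positions are those of the deposited transcript tables, which equal those of assembly Amel_HAv3.1 for all 193 members. Members were spread over all 16 chromosomes, with 1 on an unplaced sequence. Chromosome 1 held 35 of them (18.1%, against 12.9% of tested multi-exon coding genes), chromosome 4 held 20 (10.4%, against 5.97%) and chromosome 2 held 17 (8.81%, against 6.83%). On the plus strand lay 88 members and on the minus strand 105. Another transcript overlapped the member on the same strand in 50 cases (25.9%), against 7.52% of multi-exon coding genes, and 29 members (15%, against 0.769%) lay wholly inside another gene's span on their own strand. Overlap on the opposite strand was found for 34 members (17.6%, against 33.0%). How the authors' counting divided reads between such overlapping genes, and whether it used strand, is not stated in the labels or headers, so counts of these members are uncertain.

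Neighbouring members formed 11 runs with no other gene start between them, with 28 genes in all. Of these runs 9 held 2 genes and 2 held 5, and 7 of the 17 neighbouring pairs lay on opposite strands. The run on chromosome 2 (4823146 to 4838343) consisted of LOC724274, LOC724367, LOC724405, LOC724449 and LOC724488, all on the plus strand. Of its 5 genes, 4 were among the 10 members with the highest mean FPKM. LOC724405 varied little, with 580 ± 42.0 CPM in the control, 539 ± 109 CPM at 25 ng per bee and 521 ± 54.8 CPM at 250 ng per bee (SD, n = 5). Its neighbour LOC724367 had 166, 411, 35.2, 68.2 and 31.5 CPM in the control, 168, 115, 165, 79.7 and 55.4 CPM at 25 ng per bee, and 73.3, 77.7, 160, 118 and 44.3 CPM at 250 ng per bee. Its highest and lowest values of the 15 both fell in control libraries.

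LOC724488, at the other end of this run, also varied most within the control, with 332, 209, 91.5, 92.2 and 141 CPM, beside 251, 169, 276, 194 and 129 CPM at 25 ng per bee and 178, 196, 188, 286 and 125 CPM at 250 ng per bee. Levels of LOC724449 ranged from 425 to 750 CPM in the control, 403 to 521 CPM at 25 ng per bee and 433 to 694 CPM at 250 ng per bee, and those of LOC724274 from 227 to 363, 220 to 294 and 208 to 332 CPM. Neighbours in the run therefore differed in how far the pools of a group spread, and for all 5 genes the 3 groups overlapped.

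The run on chromosome 1 (15876519 to 15884110) held LOC725230, LOC725272, LOC725308, LOC725344 and LOC725238, on the minus, plus, minus, plus and plus strand. LOC725230 had 28.5 ± 3.01 CPM in the control, 31.9 ± 11.8 CPM at 25 ng per bee and 29.7 ± 13.9 CPM at 250 ng per bee (SD, n = 5). The other 4 genes of the run had group means of 3.01 to 9.73 CPM. LOC725308 had the lowest, with 4.47 ± 0.875, 3.99 ± 1.28 and 3.01 ± 1.01 CPM over the same 3 groups (log2 fold change at 250 ng per bee against control -0.57 ± 0.28, SE, adjusted p = 0.441 in edgeR).

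**Figure D2:**
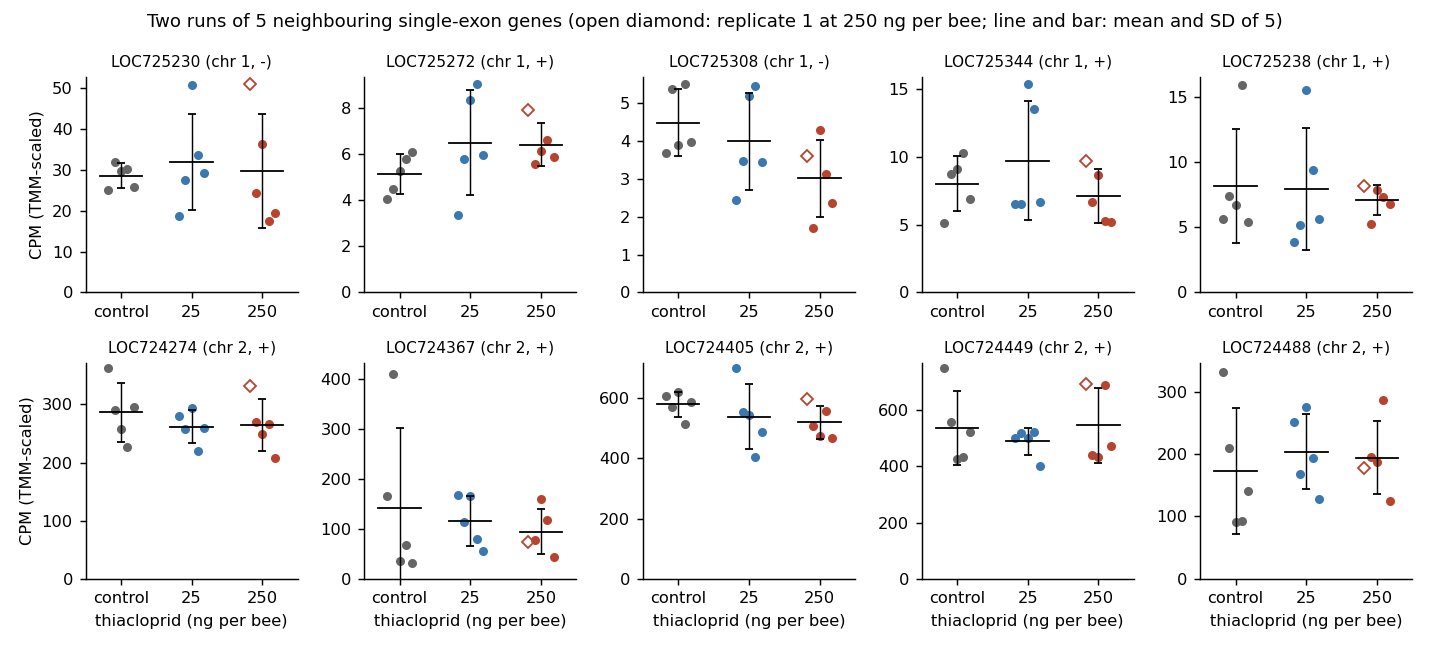
TMM-scaled CPM (y axis) by group (x axis: control, 25 and 250 ng per bee) for the 5 genes of the run on chromosome 1 (upper row) and the 5 of the run on chromosome 2 (lower row), with an open diamond for replicate 1 at 250 ng per bee, lines for means and bars for SDs of 5 libraries, bars ending at 0 where they would pass it. LOC724367 spreads from 31.5 to 411 CPM within the control, while LOC724405 stays between 405 and 701 CPM over all 15 libraries.

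A pair of overlapping members on the plus strand of chromosome 1, LOC100578901 (14897819 to 14898449) and LOC102655679 (14898270 to 14899145), differed in 1 library. LOC100578901 was listed at 0 CPM in control replicate 5 and had 7.73 to 12.2 CPM in the other 4 control libraries, 5.85 to 11.9 CPM at 25 ng per bee and 4.97 to 10.1 CPM at 250 ng per bee. LOC102655679 had 41.8 CPM in control replicate 5, within the 38.2 to 46.9 CPM of the other control libraries. By edgeR's biological coefficient of variation between replicates, the steadiest member was LOC412596 (chromosome 4, 15831 to 17651), at 0.110. It had 59.5 to 73.2, 58.7 to 70.3 and 59.6 to 73.6 CPM in the control, at 25 and at 250 ng per bee. At the other extreme was LOC102655153 (0.734), which lies inside LOC100576383 on the same strand, with 0 to 3.75 CPM in the control, 0.44 to 3.10 CPM at 25 ng per bee and 0.131 to 1.11 CPM at 250 ng per bee. The genes of the long runs, this pair and these extremes were chosen after their values were seen.

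The first dose comparison set 25 ng per bee against the control and asked whether the lower dose altered any of these genes. Of the 193 members, 0 passed an adjusted p of 0.05 in edgeR, as did 0.00% of the 9560 genes tested, and DESeq2 and limma-voom also called 0 members. At an unadjusted p under 0.05 stood 4 members (3 higher and 1 lower) in edgeR, or 2.07%, against 2.46% of all tested genes. DESeq2 put 6 members under this level (3.11%, against 2.76% of tested genes) and limma-voom 12 (6.22%, against 6.15%). The edgeR count was 14 members (11 higher and 3 lower, 7.25%, against 5.31% of tested genes) without replicate 1 at 250 ng per bee, and 15 (7.81%, against 5.26%) with the third group left out of the fit. It was 9 without replicate 1 (4.66%, against 3.07%) and 2 without replicate 4 (1.04%, against 1.48%) at 25 ng per bee. Without control replicates 1 and 3 it was 7 (3.63%, against 2.87%) and 2 (1.04%, against 1.37%). Without replicate 2 at 250 ng per bee it was 2 (1.04%, against 2.28%). The median log2 fold change was 0.015 in members, against -0.0098 in multi-exon coding genes and -0.0081 in all tested genes.

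LOC113219380, given above by library, had 1300 ± 273 CPM at 25 ng per bee, against 899 ± 130 CPM in the control (SD, n = 5 each), a log2 fold change of 0.53 ± 0.17 (SE, adjusted p = 0.998 in edgeR). LOC102655219 (chromosome 6, 4795533 to 4797069) had 8.85, 5.6, 4.94, 7.05 and 8.49 CPM at 25 ng per bee, against 4.73, 3.24, 1.99, 6.83 and 4.06 CPM in the control. All exposed libraries but replicate 3 and 2 lay above the highest control library, so the groups overlapped (0.73 ± 0.33, adjusted p = 0.998 in edgeR). LOC102656131 (0.26 ± 0.12), LOC102653839 (0.17 ± 0.09) and LOC410306 (0.17 ± 0.10) had the next smallest p-values among the members that were higher.

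On the other side stood LOC113218554 (chromosome 3, 6055965 to 6060014), with 13.7, 13, 12.4, 9.93 and 13.5 CPM at 25 ng per bee, against 16.3, 14.8, 15.4, 18.3 and 13 CPM in the control. Control replicate 5 lay among the exposed libraries (-0.31 ± 0.14, adjusted p = 0.998 in edgeR). LOC724832 (-0.48 ± 0.23), LOC100577163 (-0.28 ± 0.14, inside LOC410649 on the same strand) and LOC107965415 (-0.72 ± 0.38) were further members of low p. LOC113218576 (-0.69 ± 0.34) was one in which the control itself was split, with 32.5 and 38.6 CPM in replicates 1 and 4 and 9.10 to 14.9 CPM in the other 3, beside 10.9 to 18.0 CPM at 25 ng per bee. For 0 of the 193 members did all libraries at 25 ng per bee lie above, or all below, every control library, against 0.701% and 0.220% of tested genes.

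The second comparison set 250 ng per bee against the control. With all 15 libraries, 0 of the 193 members passed an adjusted p of 0.05 in edgeR, beside 0.00% of the 9560 genes tested. DESeq2 called 0 members, against 0.554% of tested genes, and limma-voom with sample weights called 4 members (1 higher and 3 lower, 2.07%), against 4.08% of tested genes. At an unadjusted p under 0.05 in edgeR stood 17 members (8.81%, 4 higher and 13 lower), against 12.0% of tested genes (429 higher and 715 lower). With the size factors of DESeq2 in edgeR, 7 members were higher and 13 lower (10.4%), against 11.3% of tested genes (533 higher and 544 lower). In DESeq2 itself 9 were higher and 13 lower (11.4%), against 12.2% (580 higher and 583 lower). With the correction for transcript length, edgeR had 1 higher and 13 lower (7.25%), against 6.75% (281 higher and 364 lower). Limma-voom put more genes under this level, with 27 members higher and 27 lower (28.0%), against 27.7% (1169 higher and 1481 lower). Leaving out replicate 3 of the 250 ng per bee group gave 26 members in edgeR (13.5%, against 12.9% of tested genes). Leaving out control replicate 3 gave 11 (5.70%, against 7.52%). The median log2 fold change of members was 0.0026, against -0.037 in multi-exon coding genes and -0.031 in all tested genes.

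Length and direction moved together in members and in other genes alike. In 4 classes of transcript length bounded by the quartiles of all tested genes, from short to long, members had medians of 0.12, 0.02, -0.15 and -0.22 (80, 48, 38 and 27 genes) on the log2 scale at 250 ng per bee against control, and multi-exon coding genes had medians of 0.13, -0.01, -0.09 and -0.14. At 25 ng per bee against control the medians ran from 0.08 in the shortest to -0.09 in the longest members, and from 0.05 to -0.05 in multi-exon genes. With a correction for transcript length in each library, the 4 medians of members at 250 ng per bee were -0.04, 0.00, -0.06 and -0.08. Those of multi-exon coding genes were then 0.0046, -0.011, -0.015 and -0.015. Over all members the corrected median was -0.035, against -0.0094 in multi-exon coding genes.

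LOC410990 (chromosome 4, 12088508 to 12090673, 2166 nt) had 10.4, 9.20, 8.10, 10.2 and 7.32 CPM at 250 ng per bee, against 14.2, 12.3, 13.6, 12.6 and 11.3 CPM in the control. Every library at 250 ng per bee lay below every control library, with 12.4, 11.1, 9.78, 8.65 and 11 CPM at 25 ng per bee between and among them. The log2 fold change was -0.49 ± 0.14 (SE, adjusted p = 0.290 in edgeR, adjusted p = 0.0356 in limma-voom).

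LOC412742 (chromosome 12, 8034460 to 8038308, 3849 nt) had the smallest p of all members, with 41.0, 36.1, 35.9, 36.8 and 35.6 CPM at 250 ng per bee, against 54.3, 53.1, 60.7, 39.0 and 48.0 CPM in the control. Replicate 1 at 250 ng per bee lay above control replicate 4, and otherwise the groups did not overlap (-0.46 ± 0.13, adjusted p = 0.277 in edgeR). LOC724832 (chromosome 6, 16771523 to 16774829) had 54.3, 30.4, 45.2, 37.6 and 21.4 CPM at 250 ng per bee, against 77.0, 44.3, 72.1, 55.3 and 42.8 CPM in the control. Here the groups overlapped widely (-0.62 ± 0.23, adjusted p = 0.346 in edgeR, 0.0339 in limma-voom).

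LOC408452, among the 10 most abundant members, had 670, 397, 559, 517 and 306 CPM at 250 ng per bee, against 588, 624, 762, 614 and 525 CPM in the control. Replicate 1 lay above 4 control libraries and replicate 3 above 1, while replicates 2, 4 and 5 lay below all 5 (-0.35 ± 0.18, adjusted p = 0.450 in edgeR, 0.0380 in limma-voom). These 3 and LOC102655399, described below, were the 4 members that limma-voom called.

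Other members with small p-values on the lower side at 250 ng per bee were LOC724315 (-0.70 ± 0.22), LOC102653993 (-0.62 ± 0.21), LOC102655284 (-0.32 ± 0.12), LOC724293 (-0.48 ± 0.18), LOC113218576 (-0.87 ± 0.34), LOC107964762 (-0.76 ± 0.29) and LOC726804 (-0.27 ± 0.10), with adjusted p-values of 0.299 to 0.361 in edgeR. LOC107964762 and LOC726804 each lie inside another gene on the same strand. In LOC113218576 the 5 libraries at 250 ng per bee held 9.93 to 13.2 CPM, and the difference came beside the 2 high control libraries named above.

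On the higher side, LOC726447 (chromosome 1, 15185754 to 15186376, 623 nt) had 15.3, 9.61, 11.1, 9.58 and 10.5 CPM at 250 ng per bee, against 9.08, 8.35, 8.80, 9.11 and 7.72 CPM in the control. Every library at 250 ng per bee lay above every control library, and replicate 1 lay far above the rest (0.39 ± 0.17, adjusted p = 0.392 in edgeR). LOC726446 (chromosome 1, 367913 to 369386, inside LOC551203 on the same strand) had 2.08, 6.62, 2.43, 4.99 and 8.89 CPM at 250 ng per bee, against 0.90, 2.74, 2.93, 2.28 and 3.05 CPM in the control (1.07 ± 0.42, adjusted p = 0.362 in edgeR). Replicates 1 and 3 lay within the control range and the other 3 above it.

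LOC410306 (0.25 ± 0.10), LOC725816 (0.25 ± 0.12), LOC102654007 (0.26 ± 0.12), LOC113219380 (0.33 ± 0.17), LOC102656914 (0.18 ± 0.09) and LOC102655219 (0.59 ± 0.33) were also higher at 250 ng per bee, with adjusted p-values of 0.357 to 0.503 in edgeR. LOC724757 (chromosome 7, 12512584 to 12513051) had 108, 65.2, 54.5, 54.5 and 53.7 CPM at 250 ng per bee, against 59.9, 48.2, 59.4, 50 and 52.7 CPM in the control. Its difference (0.32 ± 0.16, adjusted p = 0.450 in edgeR) was 0.10 ± 0.09 without replicate 1 at 250 ng per bee.

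Over all members, the libraries at 250 ng per bee all lay above every control library for 1 gene (0.518%, against 0.973% of tested genes), which was LOC726447. They all lay below for 3 genes (1.55%, against 1.78%), namely LOC410990, LOC411338 and LOC113219083. In LOC113219083, with 5 to 16 counts per library, the groups barely parted. Its replicate 2 at 250 ng per bee had 1.0496 CPM, against 1.0502 CPM in control replicate 1. LOC411338 (chromosome 9, 7687128 to 7690995) had 6.33 ± 0.677 CPM at 250 ng per bee, against 7.91 ± 0.694 CPM in the control (SD, n = 5 each), a log2 fold change of -0.32 ± 0.19 (SE, adjusted p = 0.517 in edgeR).

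Without replicate 1 at 250 ng per bee, the comparison gave calls. In edgeR, 7 of the 193 members (3.63%) rose, against 2.20% of the 9617 genes then tested, and 0 members fell, against 0.374%. At an unadjusted p under 0.05 in the same fit stood 44 members (30 higher and 14 lower, 22.8%), against 21.3% of tested genes (1230 higher and 821 lower). None of the 7 genes overlaps another transcript in the annotation. In edgeR, leaving out any of the other 14 libraries instead gave 0 called members in each case. The median log2 fold change of members without replicate 1 was 0.053, against -0.015 in all tested genes. With the correction for transcript length added, it was -0.014 in members and -0.012 in all tested genes, and 36 members (18 higher and 18 lower, 18.7%) stood at an unadjusted p under 0.05, against 17.3% of tested genes.

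LOC102655399 (chromosome 8, 11552232 to 11553045, minus strand, 814 nt) had 23.7 CPM in replicate 1 and 39.6, 37.5, 46.7 and 48.1 CPM in replicates 2 to 5 at 250 ng per bee, against 27.3, 33.3, 29.4, 27.7 and 33.3 CPM in the control. At 25 ng per bee it had 37.1, 31.2, 32.4, 36.7 and 38.0 CPM. Replicates 2 to 5 at 250 ng per bee lay above every control library and replicate 1 below every one. The log2 fold change was 0.54 ± 0.10 without replicate 1 (SE, adjusted p = 0.0265 in edgeR) and 0.37 ± 0.15 with it (adjusted p = 0.381).

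LOC102654159 (chromosome 1, 4486178 to 4486913, minus strand, 736 nt) had 7.93 CPM in replicate 1 and 51.2, 46.6, 64.5 and 56.2 CPM in replicates 2 to 5 at 250 ng per bee, against 39.4, 36.2, 37.8, 42.6 and 33.5 CPM in the control. The 25 ng per bee libraries held 45.6, 47.4, 39.1, 43.9 and 51.6 CPM. Replicate 1 thus stood far under all other libraries, and replicates 2 to 5 above all controls (0.55 ± 0.11 without replicate 1, adjusted p = 0.0265 in edgeR, and 0.25 ± 0.34 with it, adjusted p = 0.798).

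LOC113219269 (chromosome 15, 7428872 to 7430863, plus strand, 1992 nt) had 4.87 CPM in replicate 1 and 19.8, 19.8, 22.1 and 18.3 CPM in replicates 2 to 5 at 250 ng per bee, against 14.6, 13.1, 10.8, 13.6 and 13 CPM in the control. Its values at 25 ng per bee were 14.4, 16.6, 17.0, 20.7 and 14.6 CPM. Of these, replicates 1 and 5 lay within the control range and replicate 4 within that of replicates 2 to 5 at 250 ng per bee. Replicates 2 and 3 at 25 ng per bee lay between these ranges. Replicates 2 to 5 at 250 ng per bee did not overlap the control (0.64 ± 0.13 without replicate 1, adjusted p = 0.0285 in edgeR, and 0.37 ± 0.28 with it, adjusted p = 0.629).

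LOC102656199 (chromosome 5, 5897053 to 5898357, plus strand, 1305 nt) had 2.21 CPM in replicate 1 and 15.4, 16.0, 17.8 and 16.5 CPM in replicates 2 to 5 at 250 ng per bee, against 9.98, 11, 10.7, 11.2 and 6.30 CPM in the control. Its libraries at 25 ng per bee, with 13.6, 12, 10.5, 11 and 12.1 CPM, lay below replicates 2 to 5 at the higher dose. The log2 fold change was 0.77 ± 0.15 without replicate 1 (adjusted p = 0.0294 in edgeR), the largest of the 7, and 0.45 ± 0.36 with it (adjusted p = 0.644).

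LOC100578513 (chromosome 1, 4551996 to 4553961, plus strand, 1966 nt) had 38.6 CPM in replicate 1 and 72.7, 76.8, 79.9 and 82.0 CPM in replicates 2 to 5 at 250 ng per bee, against 54.6, 66.0, 61.5, 62.6 and 58.1 CPM in the control. At 25 ng per bee its range was 52.7 to 66.6 CPM, close to that of the control. Of the 7 genes it had the smallest difference (0.39 ± 0.08 without replicate 1, adjusted p = 0.0311 in edgeR, and 0.21 ± 0.16 with it, adjusted p = 0.630).

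LOC102654384 (chromosome 5, 4994902 to 4996326, minus strand, 1425 nt) had 7.31 CPM in replicate 1 and 30.6, 28.2, 40.6 and 29.8 CPM in replicates 2 to 5 at 250 ng per bee, against 21.8, 17.8, 22.9, 25.9 and 20.8 CPM in the control. Its values at 25 ng per bee, 24.5 to 36.5 CPM, overlapped both. Without replicate 1 the log2 fold change was 0.59 ± 0.14 (adjusted p = 0.0435 in edgeR), and with it 0.31 ± 0.29 (adjusted p = 0.699).

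LOC113219417 (chromosome 1, 1043403 to 1044121, minus strand, 719 nt) had 19.5 CPM in replicate 1 and 84.7, 69.0, 89.6 and 98.5 CPM in replicates 2 to 5 at 250 ng per bee, against 56.4, 44.5, 45.2, 66.5 and 62.8 CPM in the control. Replicate 3 at 250 ng per bee lay just above the highest control library, and the values at 25 ng per bee ran from 54.3 to 90.7 CPM. The log2 fold change was 0.65 ± 0.16 without replicate 1 (adjusted p = 0.0457 in edgeR) and 0.38 ± 0.30 with it (adjusted p = 0.635). All 7 genes had the lowest of their 15 values in replicate 1, which their choice by a fit without that library favoured. In edgeR, whether that library is counted decides the calls. With all libraries, limma-voom called LOC102655399 of the 7 (adjusted p = 0.0328).

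**Figure D3:**
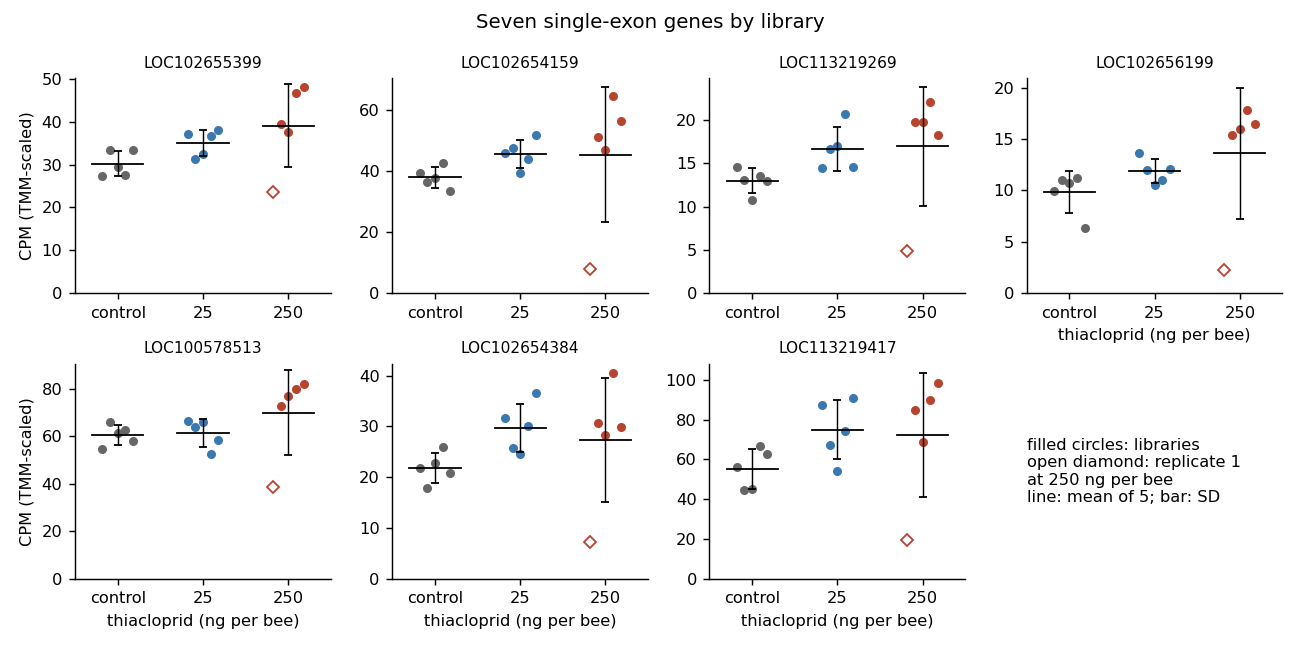
TMM-scaled CPM (y axis) by group (x axis: control, 25 and 250 ng per bee) for the 7 single-exon genes called without replicate 1 at 250 ng per bee, with filled circles for libraries, an open diamond for replicate 1 at 250 ng per bee, lines for means and bars for SDs of all 5 libraries. In each of the 7 genes the diamond is the lowest of 15 values, while replicates 2 to 5 lie above every control library.

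Without replicate 1, other tests made more calls. DESeq2 called 19 members (13 higher and 6 lower, 9.84%), against 8.30% of tested genes, limma-voom called 21 (16 higher and 5 lower, 10.9%), against 9.28%, and edgeR with DESeq2's size factors called 7, all higher, against 2.53%. These last were the same 7 genes. A block for replicate number gave 20 (16 higher and 4 lower), against 6.91%. All 7 were also among the calls of DESeq2 and limma-voom. With the correction for transcript length, edgeR called 2 of the 7, LOC113219269 (0.65 ± 0.13) and LOC100578513 (0.40 ± 0.08), each with an adjusted p = 0.0418, against 0.613% of tested genes called.

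**Figure D4:**
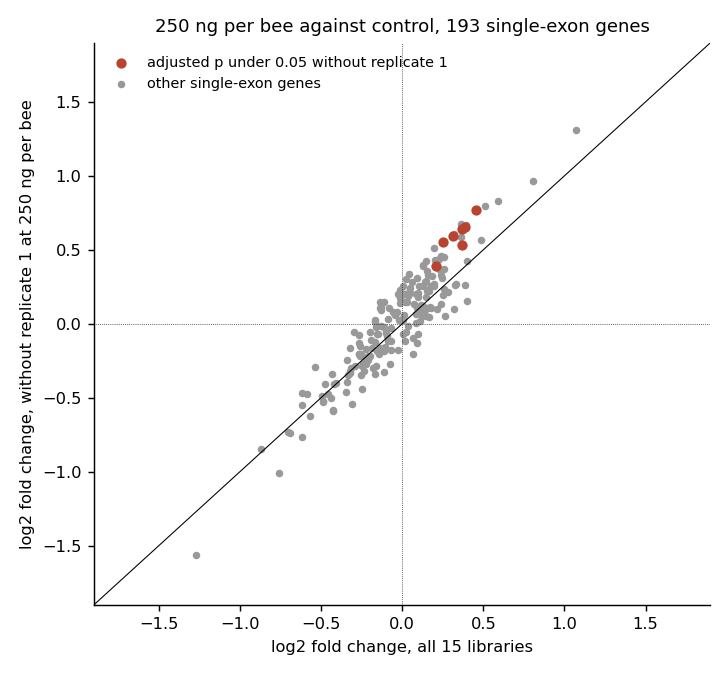
Log2 fold change at 250 ng per bee over control for the 193 single-exon genes, with all 15 libraries (x axis) and without replicate 1 at 250 ng per bee (y axis), with a line of equality. The 7 genes called without replicate 1 (red) had 0.21 to 0.45 with all libraries and 0.39 to 0.77 without it.

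Replicate 1 at 250 ng per bee also stood apart over the members as a whole. It held the lowest of the 15 values in 62 members (32.1%), against 21.9% of tested genes and 23.0% of multi-exon coding genes. The next library in this respect, replicate 5 at 250 ng per bee, held the lowest value in 25 members (13%, against 12.5% of tested genes). Replicate 1 held the highest value in 31 members (16.1%, against 16.7% of tested genes). The median log2 ratio of replicate 1 to the median of replicates 2 to 5 at 250 ng per bee was -0.17 in members and 0.03 in multi-exon coding genes.

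**Figure D5:**
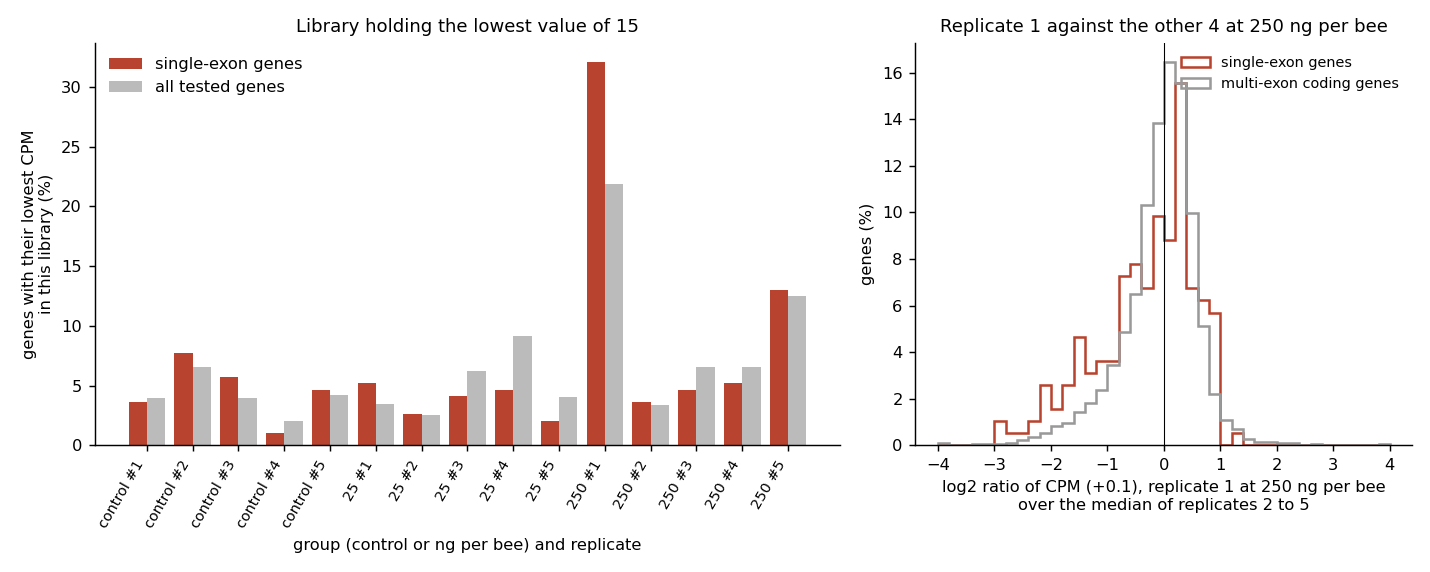
Left, percent of genes (y axis) whose lowest CPM of 15 falls in each library (x axis), for single-exon genes (red) and all tested genes (grey). Right, percent of genes (y axis) by the log2 ratio of replicate 1 to the median of replicates 2 to 5 at 250 ng per bee (x axis, 0.1 CPM added), where single-exon genes have a median of -0.17 and multi-exon coding genes (grey) of 0.03.

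In 18 members (9.33%), against 2.94% of tested genes, replicate 1 had under 0.5 times the lowest of the other 14 libraries, a limit chosen after these values were seen. The other 14 libraries had such a gap below all others in at most 2 members each. From the shortest to the longest length class, 12.5%, 10.4%, 7.89% and 0.00% of members had this gap in replicate 1. For multi-exon coding genes the shares were 5.96%, 2.95%, 1.96% and 1.18%. The 18 included 5 of the 7 genes above, the exceptions being LOC102655399 and LOC100578513. LOC113219001 (chromosome 1, 9066215 to 9068116) had 6.24 CPM in replicate 1 and 30.2 to 40.3 CPM in replicates 2 to 5 at 250 ng per bee, against 23.6 to 31.3 CPM in the control. LOC102656384 (chromosome 3, 8371036 to 8371718) had 3.68 CPM in replicate 1 and 17.7 to 33.0 CPM in replicates 2 to 5 at 250 ng per bee, against 12.6 to 20.6 CPM in the control. Both were singled out after their values were seen, for the lowest ratios among those of the 18 that were not called.

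Among the 18, 5 overlap another transcript on the same strand and 1 lies inside another gene. LOC725981, 1 of the 18, had 9.96 CPM in replicate 1, below the 31.1 to 41.5 CPM of replicates 2 to 5 at 250 ng per bee. LOC113219119 overlaps LOC725981 on the same strand of chromosome 1 and is not among the 18. It had 8.94 CPM in replicate 1, also the lowest of its 15 values, and 10.4 to 13.1 CPM in replicates 2 to 5. In every length class the share of members with their lowest value in replicate 1 was above that of multi-exon coding genes, at 28.8%, 33.3%, 42.1% and 25.9%, against 24.9%, 23.9%, 21.7% and 21.6%. Replicate 1 stood apart in label prefix and in depth. Of the 15 libraries it also had the highest level of the gland genes (268900 CPM) and of the glial gene (391 CPM). Its summed level of the neuronal genes (877 CPM) was the lowest. Margins were small for the gland genes, with up to 259300 CPM in the control. The same held for the neuronal genes, with 896 CPM as the lowest sum in replicates 2 to 5. Its sums for fat body and haemolymph (4324 CPM), retina (4802 CPM) and muscle (157 CPM) lay within the control ranges. The differences in prefix, depth and the gland, glial and neuronal levels cannot be told apart. The 5 most abundant genes of replicate 1 held 30.9% of its counts, against 31.2% and 31.5% in control replicates 2 and 3. The part of this share in the low values was not tested.

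Setting the 4 libraries left at 250 ng per bee against the control, all lay above every control library for 16 members (8.29%, against 5.49% of tested genes) and below for 8 (4.15%, against 4.44%). LOC726447 and the 7 called genes were among the 16. LOC102655097 (chromosome 16, 6628023 to 6629090) was just outside the threshold, with 16.8 to 23.8 CPM in replicates 2 to 5 at 250 ng per bee, against 12.5 to 15.6 CPM in the control (0.60 ± 0.15, adjusted p = 0.0502 in edgeR without replicate 1). The 4 lower members with the smallest p-values with all libraries had similar differences without replicate 1, at -0.47 ± 0.13 for LOC412742, -0.52 ± 0.15 for LOC410990, -0.73 ± 0.24 for LOC724315 and -0.55 ± 0.23 for LOC102653993, with adjusted p-values of 0.0606 to 0.176 in edgeR.

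The third comparison set 250 ng per bee against 25 ng per bee. It shares its libraries with the comparisons above, and 0 of the 193 members passed in edgeR, DESeq2 or limma-voom, beside 0.00% of tested genes in edgeR. At an unadjusted p under 0.05 stood 4 members (2.07%, 2 higher and 2 lower), against 4.99% of tested genes in edgeR. DESeq2 put 4 members (2.07%, against 5.65%) and limma-voom 12 (6.22%, against 8.86%) under this level. The median log2 fold change was -0.033 in members and -0.024 in all tested genes. Without replicate 1 at 250 ng per bee, 0 members passed and 19 (13 higher and 6 lower, 9.84%) stood at an unadjusted p under 0.05 in edgeR, against 8.01% of tested genes. That count was 10 without replicate 3 at 250 ng per bee (5.18%, against 7.33% of tested genes). It was 8 without replicate 4 at 25 ng per bee (4.15%, against 5.94%). Without replicate 2 or 3 at 25 ng per bee it was 1 (0.518%, against 3.09% and 3.22%). The 4 libraries left at 250 ng per bee then all lay above those at 25 ng per bee for 2 members, LOC100578513 and LOC102656199 (1.04%, against 1.14% of tested genes), and below for 2, LOC102653993 and LOC113219319 (1.04%, against 0.973%).

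LOC102653993 (chromosome 11, 11382918 to 11387422, 4505 nt) had 4.34, 5.25, 4.4, 5.14 and 5.10 CPM at 250 ng per bee, against 6.54, 5.81, 6.48, 6.51 and 6.31 CPM at 25 ng per bee. It was the only member whose groups did not overlap in this comparison (0.518%, against 0.397% of tested genes for the lower side and 0.314% for the higher side), while its control libraries held 4.55 to 11.5 CPM. The log2 fold change was -0.39 ± 0.21 (SE, adjusted p = 0.934 in edgeR).

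LOC410492 (-0.44 ± 0.17, inside LOC107965483 on the same strand), LOC102654959 (-0.65 ± 0.26), LOC726952 (-0.29 ± 0.14) and LOC113219119 (-0.36 ± 0.18) were lower at 250 than at 25 ng per bee. On the higher side stood LOC102656433 (0.29 ± 0.13), LOC102655679 (0.21 ± 0.10), LOC102655073 (0.65 ± 0.32), LOC102654965 (0.93 ± 0.46) and LOC102654186 (0.27 ± 0.14), each of the 9 with an adjusted p of 0.934 in edgeR. LOC102654965, the longest member at 10350 nt, had 1.33, 2.02, 1.39, 2.34 and 2.88 CPM at 250 ng per bee, against 0.422, 0.611, 0.989, 0.961 and 2.18 CPM at 25 ng per bee. These counts are low and the groups overlapped through replicate 5 at 25 ng per bee.

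Tested for any difference between doses in a single step, edgeR called 0 members and 0 of all tested genes. At an unadjusted p under 0.05 stood 9 members (4.66%, against 6.75% of tested genes), and the smallest adjusted p of a member was 0.689. DESeq2 and limma-voom were not run for this test.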

How the data were processed

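Brain poly-A RNA of 15 pools of 5 bees was sequenced, in 3 groups of 5, with groups and replicate numbers from the sample titles. StringTie 2.0.2, HISAT2 2.1.0, DESeq2 1.22.2, Trimmomatic 0.39 and SAMtools 1.7 are listed in the submitters' processing notes. Settings, build and strand use in counting are not stated there. The authors deposited a gene table of estimated counts, each equal within 0.5 to the summed coverage times transcript length divided by the read length of 75, and these were used as whole numbers. Per the file headers, the deposited transcript tables give FPKM and coverage for 28276 transcripts; coverage served this check and FPKM the levels per length. Start and end equalled those of assembly Amel_HAv3.1 for 193 of 193 members and 12069 of 12112 genes.

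Genes were tested with edgeR 4.0.16 (R 4.3.3): TMM scaling, filterByExpr, which all 193 members passed, 1 fit over the 15 libraries with a mean per group, the two-sided quasi-likelihood F test, and Benjamini-Hochberg adjustment over all genes tested, with 0.05 as threshold. CPM are scaled by TMM and given by library or as mean ± SD. Alternatives were DESeq2 1.42.0, limma 3.58.1 (voom with sample weights), DESeq2's size factors, no low-count filter, a replicate block, a per-library length correction, only the 2 groups compared, and each library left out. Alternatives that pair the omission of replicate 1 at 250 ng per bee with another test, scaling, block or length correction were chosen after seeing the data. The script was tested on simulated data with 200 changed genes. Within each group, no pair of libraries agreed within counting noise (smallest chi-square per degree of freedom 19.8). Depth was 6834898 to 29208991 counts, so a gene near the mean count of 10 was measured with large counting error. Overlaps and runs were computed on coding and noncoding RNA transcripts, by span, with transfer and micro RNAs left out.

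The members and lists were chosen with earlier results of these data known. Genes were named by rule: the 10 highest in FPKM, the 10 (250 ng per bee against control) or 5 smallest p-values on each side, every member called with all libraries or without replicate 1 at 250 ng per bee, and the gene on each side of the count limit. Grouping by product name was planned but not possible with the names at hand, and no sequence was used here.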

Additional observations from a re-analysis of the deposited data

Results flagged for a closer look

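In groups of 5 libraries, 1 value stood apart from the other 4 by more than 95% of samples would allow in 17 of 156 groups examined, where chance gives about 5%, and 7 of the 17 were replicate 1 at 250 ng per bee. The groups are those of the named genes, many of which were named for small p-values in these same libraries. The 5% is therefore no fair measure for the 17. Among the genes, 7 were named because they passed the threshold without replicate 1 at 250 ng per bee. The 5% thus does not apply to the share of that library either. In that library LOC724531 had 446 CPM (246 to 283 CPM in the other 4 libraries of its group), LOC726447 15.3 CPM (9.58 to 11.1), LOC724757 108 CPM (53.7 to 65.2) and LOC412742 41 CPM (35.6 to 36.8), all above the others. LOC113219269 with 4.87 CPM (18.3 to 22.1), LOC102656199 with 2.21 CPM (15.4 to 17.8) and LOC100578513 with 38.6 CPM (72.7 to 82.0) lay below them.

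At 25 ng per bee, LOC724449 had 403 CPM in replicate 5 (501 to 521 CPM in the others), LOC100217360 508 CPM in replicate 1 (255 to 310), LOC113218576 18.0 CPM in replicate 5 (10.9 to 12.2) and LOC102656433 31.3 CPM in replicate 1 (21.9 to 24.0). Members held 0.893% of the counts in replicate 3 at 25 ng per bee, below the 1.02% to 1.05% of the other 4.

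In the control, LOC724211 had 834 CPM in replicate 3 (622 to 674 CPM in the others), LOC100217360 203 CPM in replicate 2 (331 to 356), LOC102653839 57.0 CPM in replicate 1 (48.5 to 50.3), LOC102656199 6.30 CPM in replicate 5 (9.98 to 11.2) and LOC113219083 1.37 CPM in replicate 2 (1.05 to 1.12).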

How the results depend on the processing

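For 250 ng per bee against control, the count of called members was 0 with all libraries and 4 in limma-voom (2.07%, against 4.08% of tested genes). It ranged from 0 to 7 (3.63%, against 2.58%) when each library was left out in turn. Without replicate 1 at 250 ng per bee it was 20 with the replicate block (16 higher and 4 lower, 10.4%, against 6.91% of tested genes). In the same libraries it was 2 with the length correction (1.04%, against 0.613%) and 19 in DESeq2 (9.84%, against 8.30%). There limma-voom gave 21 (10.9%, against 9.28%) and DESeq2's size factors gave 7 (3.63%, against 2.53%). For the other 2 comparisons it was 0 under all alternatives run.

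Median log2 fold changes with each library left out ranged from -0.0068 to 0.028 at 25 ng per bee and from -0.043 to 0.053 at 250 ng per bee against control, and from -0.075 to 0.0045 between the doses. At 250 ng per bee against control the median was 0.078 with the replicate block and without replicate 1. The library medians had a pooled SD of 0.063 (log2). The share of counts in members was 1.254%, 1.295% and 1.269% in the control, at 25 and at 250 ng per bee without the 5 most abundant genes, and 0.918% to 1.03%, 0.991% to 1.03% and 0.946% to 1.08% with a library of the group left out.

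Of 1242 values of named genes under alternatives, 1182 kept their direction and their side of the threshold, 59 passed it and 1 changed sign: LOC724757 at 250 ng per bee against control had -0.14 ± 0.10 with the length correction and without replicate 1. With all libraries or 1 left out, and no second change, 2 alternatives held values past the threshold, 10 in all. The cause was not tested.

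The numbers were not taken to pair libraries, since the labels tie no number to a shared source and not every same-numbered pair's deviations correlated above 0.1. Correlations were -0.042 to 0.13 at 25 and -0.054 to 0.085 at 250 ng per bee against control. Between the doses, replicates 3, 4 and 5 had 0.237, 0.139 and 0.138, each matching its own number best, and replicates 1 and 2 had -0.021 and 0.037. With the replicate block and all libraries, 0 members were called in each comparison, with medians of 0.015 and -0.0084 at 25 and 250 ng per bee against control and -0.054 between the doses. Pools of 5 brains and 5 libraries a group limit the precision, and members near 10 counts most of all.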
